A study of Mus musculus with 16 samples.

Results

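The transcripts described here are 9 genes of the circadian clock whose messages rise and fall together with Dbp over the day: Dbp, Tef, Hlf, Per1, Per2, Per3, Nr1d1, Nr1d2 and Ciart. They were listed by gene symbol from the annotation of the array and not by a cut on their values, but with earlier results of these data known. Counts of called genes among them therefore describe a set that was not chosen blind to the data. Of the 9 genes, 8 had a usable value in mouse lung, measured by 12 probe sets, and all 12 probe sets passed the filter on low signal. Per1 had no usable probe set and has no value here. The probe set labels of the deposited table stand beside values of other probe sets, so each gene name here depends on a realignment of labels to values in 3 runs. For the second run, which holds Tef, Per3 and Nr1d1, the direction of the shift was set after the data were seen. The 8 measured genes were tested among 7276 genes. Expression was measured in whole lung on 16 Affymetrix arrays, 1 per sample, from 4 groups of 4 samples: mice of a line titled BALB-RAG given ovalbumin (OVA), the allergen, which is a protein of egg white, BALB-RAG given phosphate-buffered saline (PBS), BALB/c given OVA, and BALB/c given PBS. Lungs of all groups were collected on day 22, 1 day past the last exposure. Rag genes encode the recombinase that assembles T and B cell receptors, and mice that lack it have no mature lymphocytes of either kind, but the titles do not say which Rag gene is altered in BALB-RAG or how. The labels used here give no age, no sex, no statement on whether samples came from separate animals, and no hour of tissue collection. Each p-value therefore refers to the variation among these samples, part or all of which may be technical.

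The circadian clock is a loop of transcription factors that runs in nearly every tissue, lung included. CLOCK and its partner ARNTL (BMAL1) bind E-boxes and switch on Per, Nr1d, Dbp and Ciart genes, and PER proteins with CRY proteins then hold CLOCK and ARNTL in check. NR1D1 and NR1D2 (REV-ERBα and REV-ERBβ) repress Arntl, Npas2 and Nfil3, so those genes peak when the genes described here are low. DBP, TEF and HLF are related leucine zipper activators that bind D-boxes, which NFIL3 also binds as a repressor.

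Promoters of 4 members are printed because they carry a motif of this loop. The sequences are RefSeq's, of build GRCm38.p6, and run from 250 bases before to 50 bases after the annotated start of the gene. The table held promoters of 8 members, all but Per2. The motifs searched on both strands were the E-box CACGTG, the E-prime box CACGTT, the D-box TTANGTAA and the core of the ROR element TAGGTCA. Among 32851 mouse promoters of this length, 7.15% held the E-box, 4.68% the E-prime box, 2.32% the D-box and 2.61% the ROR core. Capitals mark the matches, none of which overlapped another. Per3 (chr4:151044616-151044915, minus strand) held a D-box at 2 places, starting 205 and 158 bases before the start. Ciart (chr3:95882179-95882478, minus strand) held an E-box at 3 places, starting 116, 58 and 44 bases before the start. The first of 2 Tef promoters (chr15:81802423-81802722, plus strand) held 1 E-box starting 127 bases before the start, and Nr1d1 (chr11:98775328-98775627, minus strand) held 1 E-prime box, on the opposite strand, starting 28 bases before the start.
Per3: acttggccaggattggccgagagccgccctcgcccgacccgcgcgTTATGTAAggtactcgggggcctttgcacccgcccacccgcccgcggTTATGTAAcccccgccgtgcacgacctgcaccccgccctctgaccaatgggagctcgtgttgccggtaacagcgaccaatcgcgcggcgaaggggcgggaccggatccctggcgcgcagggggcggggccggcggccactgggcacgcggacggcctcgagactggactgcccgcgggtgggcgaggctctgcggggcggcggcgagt
Ciart: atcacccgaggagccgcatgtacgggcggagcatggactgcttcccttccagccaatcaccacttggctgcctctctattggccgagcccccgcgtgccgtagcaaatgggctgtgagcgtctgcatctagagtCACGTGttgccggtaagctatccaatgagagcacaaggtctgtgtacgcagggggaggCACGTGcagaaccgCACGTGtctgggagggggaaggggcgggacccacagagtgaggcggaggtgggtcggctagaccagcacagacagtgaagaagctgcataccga
Tef: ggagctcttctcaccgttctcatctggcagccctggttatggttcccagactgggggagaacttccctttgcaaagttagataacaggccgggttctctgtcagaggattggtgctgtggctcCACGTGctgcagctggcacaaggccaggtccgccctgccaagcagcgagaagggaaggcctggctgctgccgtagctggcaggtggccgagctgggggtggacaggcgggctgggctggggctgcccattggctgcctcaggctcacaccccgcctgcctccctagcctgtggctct
Nr1d1: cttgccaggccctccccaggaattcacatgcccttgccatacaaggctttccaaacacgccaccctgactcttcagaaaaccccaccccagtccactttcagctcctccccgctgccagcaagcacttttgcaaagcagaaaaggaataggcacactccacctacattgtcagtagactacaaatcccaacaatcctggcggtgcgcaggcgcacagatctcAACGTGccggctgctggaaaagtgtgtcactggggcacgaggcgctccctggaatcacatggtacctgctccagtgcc
The second Tef promoter and 1 of the 2 Per1 promoters also held 1 E-box each. None of the 4 motifs was found in the window of the same length for Dbp, Hlf or Nr1d2, which is not printed and which says only that these letters are not in these windows. A match is a string of letters and not a measured binding site.

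The lung identity of the samples held on all arrays: the mean of 7 alveolar epithelial markers lay between log2 11.53 and 12.19, and the surfactant gene Sftpc between 14.0 and 14.55. Lymphocyte markers did not match the title on part of the BALB-RAG arrays. The mean of 10 T cell markers was 3.42, 5.32, 3.69 and 3.57 on replicates 1 to 4 of BALB-RAG after OVA and between 4.34 and 4.82 after PBS, and the BALB/c PBS arrays lay between 4.34 and 4.69. Cd3d, a chain of the T cell receptor complex, read 7.03 on BALB-RAG OVA replicate 2 and 4.88 to 5.93 on the 4 BALB-RAG PBS arrays, but 2.32 to 2.5 on the other 3 BALB-RAG OVA arrays. Lymphocyte transcripts were thus present on 5 of the 8 arrays titled BALB-RAG. Rag2 read 4.2 or less on all arrays and Rag1 has no value, so neither checks the titles. Groups were kept as titled, and values without BALB-RAG OVA replicate 2 are given where they change a call. Levels are log2 of the deposited intensity, log2 4 is taken as the background, and levels are compared between samples for the same probe set only, never between genes.

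Dbp and its relatives Tef and Hlf were higher on the arrays titled BALB-RAG than on BALB/c arrays. Dbp, which drives output genes of the clock through D-boxes, read 7.52, 8.22, 7.48 and 7.11 on BALB-RAG OVA replicates 1 to 4 and 8.50, 7.29, 7.04 and 7.93 on BALB-RAG PBS arrays. In BALB/c it read 6.97 and 6.81 on OVA replicates 3 and 4 and 4.29 and 4.34 on OVA replicates 1 and 2, against 4.36, 4.40, 3.78 and 3.26 after PBS. Dbp was high on all 8 BALB-RAG arrays, nearly as high on 2 BALB/c OVA arrays, and near background on the other 6 BALB/c arrays. Tef, a paralog that binds the same sites, read 9.31, 9.77, 9.77 and 9.79 in BALB-RAG after OVA and 9.26, 8.86, 8.98 and 9.55 after PBS. Its BALB/c levels were 8.93 and 8.45 on OVA replicates 3 and 4 and 7.12 and 7.41 on OVA replicates 1 and 2, against 7.86, 7.86, 7.87 and 8.02 after PBS. BALB/c OVA replicates 1 and 2 had the lowest Tef levels of the 16 arrays. Hlf, the third D-box activator, read 6.98, 7.10, 6.58 and 6.59 in BALB-RAG after OVA and 6.79, 6.69, 6.14 and 6.73 after PBS. In BALB/c it read 4.14, 5.03, 4.11 and 4.05 after OVA and 5.01, 4.17, 4.33 and 4.90 after PBS. All 8 BALB-RAG arrays lay above all 8 BALB/c arrays for Hlf, and BALB/c OVA replicates 3 and 4 did not stand apart from the other BALB/c arrays as they did for Dbp.

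The 2 REV-ERB genes followed the pattern of Dbp. Nr1d1 read 5.73, 6.70, 5.62 and 5.52 in BALB-RAG after OVA and 6.97, 6.14, 6.05 and 6.44 after PBS. In BALB/c it read 6.20 and 6.12 on OVA replicates 3 and 4 and 2.39 and 3.06 on OVA replicates 1 and 2, against 3.18, 3.63, 2.64 and 3.01 after PBS. Nr1d1 was therefore under background on 6 of the 8 BALB/c arrays and above it on the other 10 arrays of the study. Nr1d2, its closest relative, read 10.93, 11.24, 11.56 and 11.20 in BALB-RAG after OVA and 10.96, 10.47, 10.96 and 11.65 after PBS. Its BALB/c levels were 11.09 and 10.88 on OVA replicates 3 and 4 and 8.24 and 8.47 on OVA replicates 1 and 2, against 7.92, 8.32, 8.69 and 8.27 after PBS. No BALB/c array lay between 8.69 and 10.88 for Nr1d2, so the 8 arrays fell into 2 levels that crossed the OVA group.

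Among the Period genes, whose proteins repress CLOCK and ARNTL, Per3 came closest to this pattern and Per2 did not follow it. Per3 read 6.15, 5.78, 5.82 and 5.99 in BALB-RAG after OVA and 5.73, 5.55, 5.73 and 5.99 after PBS. In BALB/c it read 5.93 and 5.56 on OVA replicates 3 and 4 and 4.56 and 5.17 on OVA replicates 1 and 2, against 4.52, 4.92, 4.14 and 3.86 after PBS. The lowest 4 of the 16 Per3 levels were 3 BALB/c PBS arrays and BALB/c OVA replicate 1. Per2 read 8.59, 8.98, 8.76 and 8.80 in BALB-RAG after OVA and 7.89, 7.65, 8.07 and 8.74 after PBS. Its BALB/c levels were 7.14, 6.91, 7.54 and 7.0 after OVA and 8.01, 7.42, 7.80 and 8.14 after PBS. The PBS groups of the 2 lines overlapped for Per2, while the means of the OVA groups lay above and below theirs. Ciart (CHRONO), which represses CLOCK and ARNTL, read 5.17, 6.27, 5.20 and 5.12 in BALB-RAG after OVA and 5.61, 4.75, 5.12 and 5.17 after PBS. In BALB/c it read 5.0, 4.87, 4.66 and 5.09 after OVA and 5.44, 6.10, 6.36 and 5.69 after PBS, so its highest group was BALB/c after PBS, where Dbp and Nr1d1 were lowest.

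**Figure D1:**
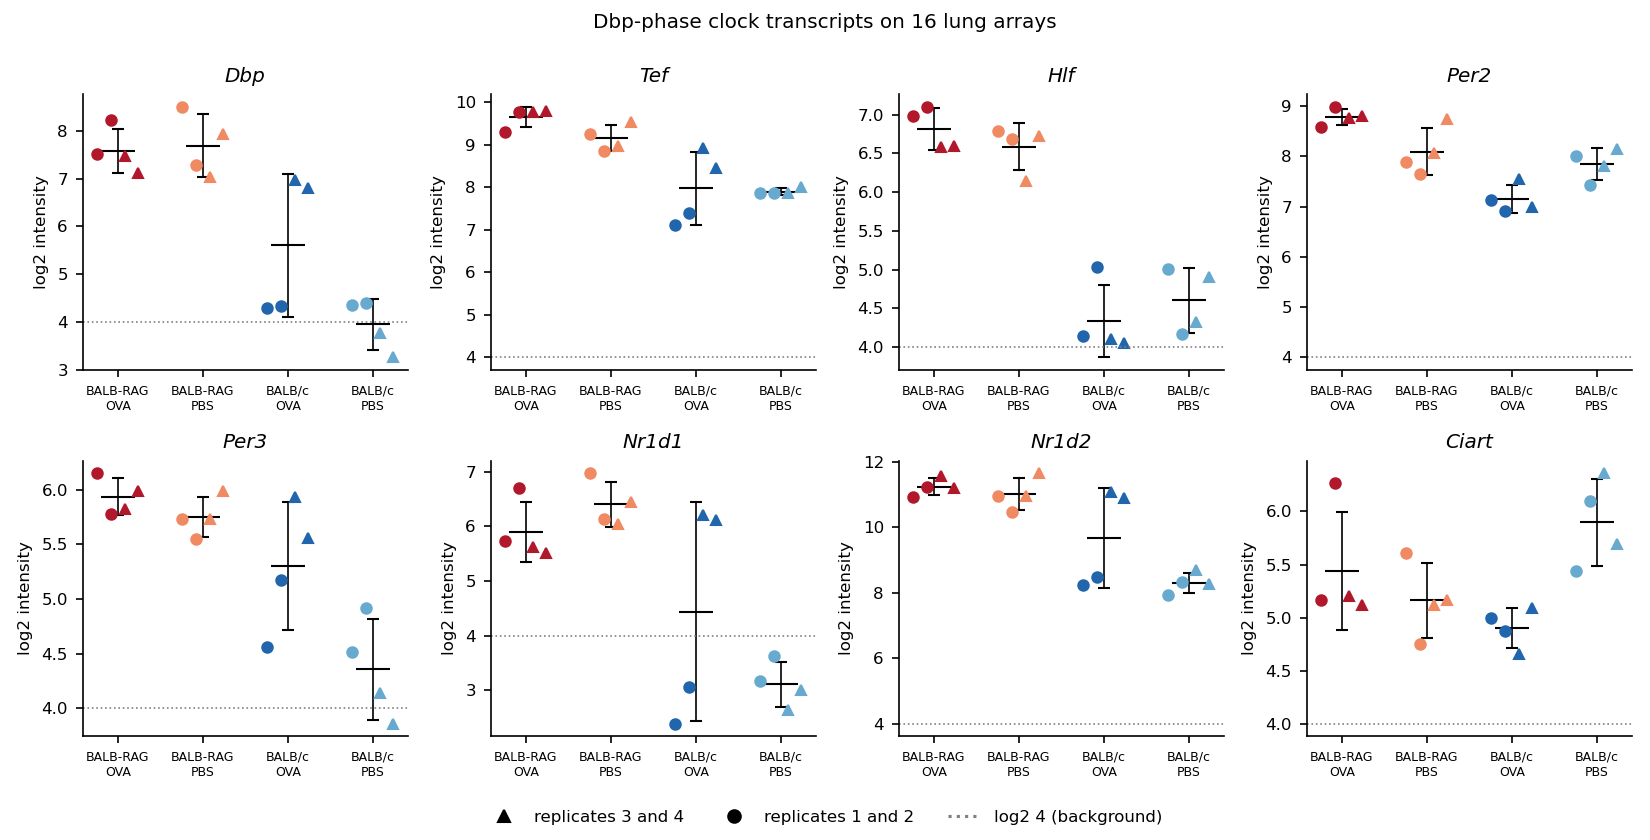
Log2 intensity (y axis) of the 8 measured clock genes on 16 arrays, by group (x axis), with replicates 3 and 4 as triangles and replicates 1 and 2 as circles. Black bars are the group mean and SD of 4 arrays and the dotted line is log2 4. In BALB/c after OVA the triangles lie apart from the circles for Dbp, Nr1d1 and Nr1d2 (Nr1d1 at 6.20 and 6.12 against 2.39 and 3.06).

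The order of the group means differed between genes. For Dbp the means were 7.58 ± 0.47 in BALB-RAG after OVA, 7.69 ± 0.66 in BALB-RAG after PBS, 5.6 ± 1.49 in BALB/c after OVA and 3.95 ± 0.54 in BALB/c after PBS (SD, n = 4 each). The 2 BALB-RAG groups were neighbours at the top for Dbp, Tef, Hlf, Per2, Per3, Nr1d1 and Nr1d2, and their arrays overlapped for each of these 7 genes. BALB/c after PBS was lowest for Dbp, Tef, Per3, Nr1d1 and Nr1d2, and BALB/c after OVA was lowest for Hlf, Per2 and Ciart. The means of the 2 BALB/c groups for Tef, 7.98 ± 0.85 after OVA and 7.90 ± 0.08 after PBS, and for Hlf, 4.34 ± 0.47 and 4.60 ± 0.41, differed by less than the SD of the OVA group. For Ciart the means were 5.44 ± 0.55 in BALB-RAG after OVA, 5.16 ± 0.35 in BALB-RAG after PBS, 4.91 ± 0.18 in BALB/c after OVA and 5.90 ± 0.41 in BALB/c after PBS.

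The second probe sets of 4 genes allowed a check within genes. Over the 16 arrays the 2 probe sets correlated at r = 0.97 for Nr1d2, 0.94 for Hlf and 0.87 for Per2. For Nr1d2 the dimmer probe set read 6.64 and 6.06 on BALB/c OVA replicates 3 and 4 and 4.36 on both replicates 1 and 2, against 3.56 to 4.66 after PBS, so it split the OVA group in the same way as the brighter one. For Per3 the correlation was 0.36, and the second probe set lay near background with a mean of 3.88. Per3 values thus rest on 1 probe set.

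The arrays titled BALB-RAG were first compared with those titled BALB/c after PBS. Since lymphocyte transcripts were present on all 4 of these BALB-RAG arrays, the values describe titled lines and not a checked genotype. Clock transcripts vary with the hour of the day, and the labels give no hour of collection. The part of the hour in this comparison, and in those that follow, was not tested. In BALB-RAG lungs 6 of the 8 measured genes were higher than in BALB/c lungs, and for all 6 every BALB-RAG array lay above every BALB/c array. The share of all tested genes whose arrays lay apart is not given here, so this describes the 6 genes only. Among all 7276 tested genes 3.90% were called in either direction and 1.97% were higher (limma, Benjamini-Hochberg adjusted p under 0.05). The median difference over the 8 genes was 1.69 on the log2 scale, and over all tested genes it was −0.01. In whole lung, fewer cells of a type and less RNA per cell cannot be told apart. Dbp was 13.3-fold higher (log2 3.74 ± 0.56 SE, limma adjusted p = 0.00172), with 2 of the 4 BALB/c arrays under log2 4. Nr1d1 was at least 5.27-fold higher, since all 4 BALB/c arrays lay under log2 4 and were set to it (limma adjusted p = 0.0127). Nr1d2 was 6.54-fold higher (2.71 ± 0.52, limma adjusted p = 0.00938) and Hlf 3.96-fold higher (1.98 ± 0.25, limma adjusted p = 0.000353). The BALB/c PBS arrays read 4.17 to 5.01 for Hlf, close to log2 4. Smaller rises were those of Per3, at 2.63-fold (limma adjusted p = 0.00737, with 1 BALB/c array under log2 4), and Tef, at 2.39-fold (limma adjusted p = 0.0301). The remaining pair did not pass the test: Per2 differed by 0.25 ± 0.22 (limma adjusted p = 0.696) and Ciart by −0.73 ± 0.26 (limma adjusted p = 0.153).

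In each pair of replicates alone Dbp, Nr1d1 and Nr1d2 were higher in BALB-RAG after PBS. Dbp differed by at least 3.48 with replicates 3 and 4, with levels under log2 4 set to 4, and by 3.51 with replicates 1 and 2 (limma adjusted p = 0.0135 and 0.0124). Nr1d1 differed by at least 2.24 and 2.55, by the same rule (limma adjusted p = 0.00782 and 0.0217), and Nr1d2 by 2.83 and 2.59 (0.0178 and 0.0078). Not every gene passed in both pairs. Per3 differed by 1.86 with replicates 3 and 4 (limma adjusted p = 0.0119) and by 0.92 with replicates 1 and 2 (0.0952). Tef lost its call in 6 of 16 fits that left out 1 array: without BALB-RAG PBS replicate 1 or 4 (limma adjusted p = 0.0816 and 0.0872) and without any 1 of the 4 BALB/c PBS arrays (0.0558 to 0.0727). With replicates 3 and 4 alone Tef did not pass either (1.32, limma adjusted p = 0.0817). With the second run of labels shifted the other way, the names Tef, Per3 and Nr1d1 would go to values that differed by 0.12, 1.98 and −0.4, none of which passed (limma adjusted p = 0.78, 0.0654 and 0.618). All 4 BALB-RAG arrays here carried lymphocyte transcripts, so no value without them can be given. Of 17 marker lists 4 did not overlap between the lines after PBS. The mean of 4 of 6 fibroblast markers was 9.19 to 9.67 in BALB-RAG against 8.22 to 8.58 in BALB/c, and that of 5 smooth muscle markers 7.94 to 8.5 against 7.57 to 7.8 (Myh11 under log2 4 on all arrays). The mean of 9 of 11 B cell markers was 4.64 to 5.15 against 5.58 to 5.9, and that of 4 of 8 NK cell markers 3.82 to 4.28 against 4.44 to 5.38. The cardiac muscle list (6 of 8) overlapped, at 8.53 to 11.3 against 8.17 to 8.75, as did the adipose list (2 of 6, Lep under log2 4 on all arrays), at 5.33 to 6.75 against 4.14 to 5.45. Their part in the line difference was not tested.

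After OVA, 5 of the 8 genes were higher in BALB-RAG than in BALB/c lungs, with 23.8% of all tested genes called in either direction and 11.6% higher. The median difference was 1.6 over the 8 genes and 0.01 over all tested genes. Hlf was 5.58-fold higher (2.48 ± 0.25, limma adjusted p = 5.08e-06), the smallest adjusted p of the 8 genes. Its BALB/c OVA arrays read 4.05 to 5.03, close to the background of log2 4, which limits how exact this fold is. Tef was 3.2-fold higher (1.68 ± 0.31, limma adjusted p = 0.000824) and Per2 3.1-fold higher (1.63 ± 0.22, limma adjusted p = 6.83e-05). Dbp was 3.95-fold higher (1.98 ± 0.56, limma adjusted p = 0.0169), and Nr1d2 2.95-fold higher with overlapping arrays (1.56 ± 0.52, limma adjusted p = 0.04). All BALB-RAG arrays lay above all BALB/c arrays for Dbp, Tef, Hlf, Per2 and Ciart. The share of all tested genes whose arrays lay apart is not given here either. Ciart differed by 0.53 ± 0.26 (limma adjusted p = 0.166), Per3 by 0.63 ± 0.26 (limma adjusted p = 0.0956) and Nr1d1 by 1.45 ± 0.68 (limma adjusted p = 0.143), none of which passed.

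**Figure D2:**
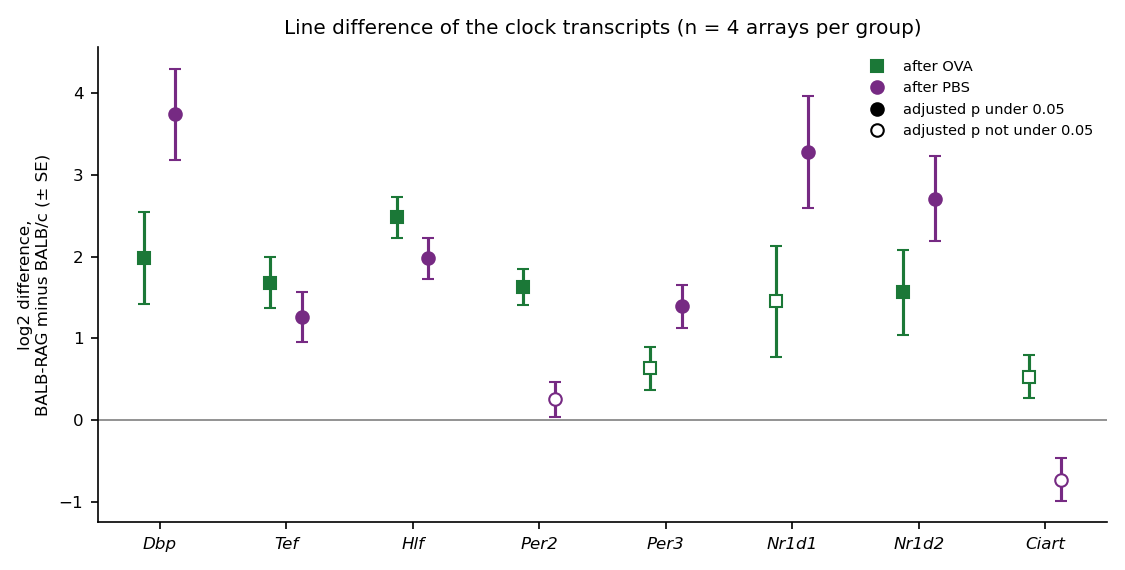
Difference of the log2 level between BALB-RAG and BALB/c lungs (y axis, ± SE, n = 4 arrays per group) for each measured clock gene (x axis), after OVA as squares and after PBS as circles. Filled symbols had an adjusted p under 0.05. Hlf and Tef were higher in BALB-RAG after both exposures, and Per2 passed only after OVA, at 1.63 against 0.25 after PBS.

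The line difference after OVA depended on which replicates were used. With replicates 1 and 2 alone, and levels under log2 4 set to 4, Dbp differed by 3.56, Nr1d1 by at least 2.21, Nr1d2 by 2.73 and Per3 by 1.10 (limma adjusted p of 0.0204 or less). With replicates 3 and 4 alone the same 4 genes differed by 0.40, −0.59, 0.40 and 0.16 (limma adjusted p of 0.118 or more). Hlf differed by 2.50 with replicates 3 and 4 and by 2.46 with replicates 1 and 2, and Per2 by 1.51 and 1.75. Without BALB/c OVA replicates 3 and 4, 7 of the 8 genes were higher in BALB-RAG, Nr1d1 among them. This choice was made after these arrays were seen to be high for Dbp, Nr1d1 and Nr1d2. The added calls thus follow from the choice and are no test. The remaining BALB/c OVA levels of Nr1d1, 2.39 and 3.06, lay under log2 4. The share of all tested genes called in that fit is not given here. Without BALB-RAG OVA replicate 2, which carried T cell transcripts, Hlf, Per2 and Tef remained called and Dbp (1.77, limma adjusted p = 0.0512) and Nr1d2 (1.56, limma adjusted p = 0.0705) did not. Leaving out any other array of the comparison also moved calls. Without BALB/c OVA replicate 1 or 2 Dbp had a limma adjusted p of 0.065 or 0.0654 and Nr1d2 of 0.145 or 0.143. Without BALB/c OVA replicate 3 or 4 Nr1d1 passed (0.0316 and 0.0363), Per3 passed without replicate 3 (0.0253), and Nr1d2 did not pass without BALB-RAG OVA replicate 1, 3 or 4 (0.0568, 0.0952 and 0.0748). In a fit of the 8 OVA arrays alone neither Dbp (0.0519) nor Nr1d2 (0.111) passed, and with no filter on low signal Nr1d2 did not (0.0554). More marker lists were apart after OVA. In BALB-RAG against BALB/c, macrophages (6 of 12 markers) read 9.01 to 9.28 against 10.49 to 11.57. The mean of airway epithelium (5 of 8) was 7.82 to 8.78 against 10.07 to 10.5. Its member Scgb3a2 went the other way, at 13.14 to 13.26 against 11.87 to 12.41. Eosinophils (4 of 7) read 3.73 to 3.92 against 3.94 to 6.18. All BALB-RAG arrays and BALB/c OVA replicate 4 lay under log2 4 for this list, so it was barely apart. B cells read 3.62 to 5.72 against 6.44 to 7.45, plasma cells (6 of 8) 5.97 to 8.61 against 8.62 to 9.62, and NK cells 3.81 to 4.59 against 4.92 to 6.78. Lists higher in BALB-RAG were cardiac muscle, at 9.0 to 10.88 against 6.8 to 7.79, and adipose tissue, at 5.27 to 6.56 against 2.95 to 3.98. Smooth muscle was higher too, at 8.04 to 8.43 against 7.23 to 8.0. Skeletal muscle (5 of 6) read 3.78 to 7.72 against 3.31 to 3.56, with BALB-RAG OVA replicate 3 and all BALB/c OVA arrays under log2 4. Their part in the line difference was not tested.

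The effect of the allergen was first examined in BALB/c lungs. Per3 rose and Per2 and Ciart fell, which is 3 of 8 genes, with 15.5% of all tested genes called (8.73% higher and 6.78% lower). Per3 was 1.93-fold higher after OVA (0.95 ± 0.26, limma adjusted p = 0.0208). Ciart was 1.99-fold lower (−0.99 ± 0.26, limma adjusted p = 0.0175), with all 4 OVA arrays below all 4 PBS arrays, and Per2 was 1.62-fold lower (−0.69 ± 0.22, limma adjusted p = 0.0429). Dbp (1.65 ± 0.56, limma adjusted p = 0.0597), Nr1d2 (1.37 ± 0.52, limma adjusted p = 0.0933) and Nr1d1 (1.33 ± 0.68, limma adjusted p = 0.223, or 1.08 with levels under log2 4 set to 4) did not pass in the fit of all 4 replicates. With the replicate number as a block Nr1d2 passed (1.37, limma adjusted p = 0.0355), and 4 genes were called. Tef and Hlf differed by 0.08 and −0.27 (limma adjusted p = 0.922 and 0.558). The median was 0.51 over the 8 genes and 0.0 over all tested genes.

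These means hid a split inside the OVA group. With replicates 3 and 4 alone, Dbp was at least 7.4-fold higher after OVA (limma adjusted p = 0.00211), Nr1d1 at least 4.47-fold higher (limma adjusted p = 0.00035), Nr1d2 5.69-fold higher (2.51, limma adjusted p = 0.00387) and Per3 3.36-fold higher (1.75, limma adjusted p = 0.0042, with 1 PBS array under log2 4). With replicates 1 and 2 alone Dbp, Nr1d2 and Per3 differed by −0.07, 0.23 and 0.15 and did not pass (limma adjusted p of 0.569 or more), and Nr1d1 was under log2 4 on all 4 arrays, so it has no fold there. Ciart differed by −1.15 and −0.83 in the 2 pairs and Per2 by −0.70 and −0.69, so their direction did not depend on the pair for the tested probe sets. The second, dimmer probe set of Per2 turned direction between the pairs. It averaged 4.99 after OVA and 4.63 after PBS in replicates 3 and 4, against 4.12 and 4.98 in replicates 1 and 2. Tef differed by 0.75 with replicates 3 and 4 and by −0.59 with replicates 1 and 2, and neither passed (limma adjusted p = 0.125 and 0.119). These fits have 2 arrays per group.

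**Figure D3:**
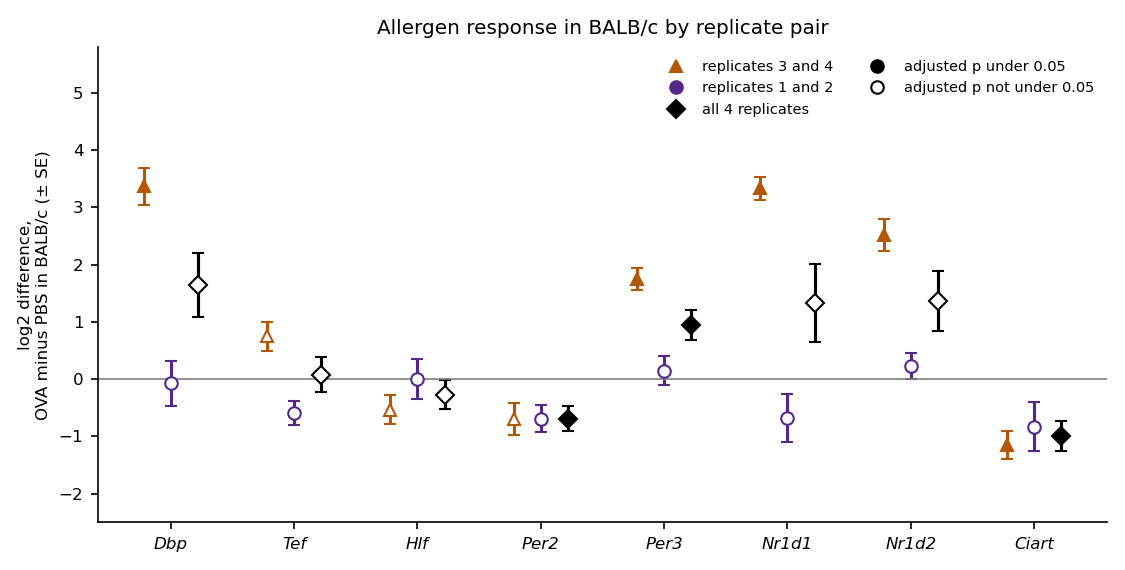
Difference of the log2 level between OVA and PBS in BALB/c lungs (y axis, ± SE) for each measured clock gene (x axis), with replicates 3 and 4 alone as triangles, replicates 1 and 2 alone as circles and all 4 replicates as diamonds. Filled symbols had an adjusted p under 0.05. Nr1d2 and Per3 differed by 2.51 and 1.75 in replicates 3 and 4 and by 0.23 and 0.15 in replicates 1 and 2. Plotted levels are as measured, so the points of Nr1d1 and Dbp include arrays under log2 4 and are not exact differences.

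The difference between the 2 pairs was itself tested, in a fit with 8 means, 1 for each group and replicate pair, that was chosen after the data were seen. With levels as measured, 2 of the 8 genes passed, Nr1d1 at 4.01 ± 0.50 (limma adjusted p = 0.0106) and Dbp at 3.44 ± 0.55 (limma adjusted p = 0.0489), as replicates 3 and 4 minus replicates 1 and 2. These differences are not exact, because 6 of the 8 Nr1d1 levels and 2 of the 8 Dbp levels lay under log2 4. With levels under log2 4 set to 4, Nr1d1 differed by 2.16 ± 0.42 (limma adjusted p = 0.0798) and Dbp by 2.96 ± 0.53 (limma adjusted p = 0.055), and neither passed, while Nr1d2 did (2.27 ± 0.38, limma adjusted p = 0.0449). None of the 8 genes passed under both treatments of low levels. Of all tested genes 0.124%, or 9 genes, were called with levels as measured, and 0.0825% were higher. With levels as measured Nr1d2 (2.27 ± 0.38, limma adjusted p = 0.062), Per3 (1.60 ± 0.34, limma adjusted p = 0.15) and Tef (1.34 ± 0.34, limma adjusted p = 0.2) did not pass, and Hlf, Ciart and Per2 differed by −0.53, −0.31 and −0.01. Each pair holds 2 arrays per group. Without 1 of the 8 BALB/c arrays Dbp was not called in any fit (limma adjusted p of 0.0848 to 0.249). Nr1d1 was not called without BALB/c OVA replicate 1 or PBS replicate 2 or 3 (0.0509, 0.0635 and 0.0523). Marker lists also split these 4 OVA arrays. The eosinophil list read 4.3 and 3.94 on BALB/c OVA replicates 3 and 4, against 5.95 and 6.18 on replicates 1 and 2 and 3.86 to 3.99 on the PBS arrays. The macrophage list read 10.97 and 10.49 on replicates 3 and 4 against 11.57 and 11.5, and the NK cell list, in the other direction, 6.24 and 6.78 against 5.55 and 4.92. Their part in the split was not tested, nor was that of the hour of collection, which the labels do not give.

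Calls in the BALB/c comparison were sensitive to single arrays. Ciart was called in 15 of 16 fits that left out 1 array, with PBS replicate 3 as the exception (limma adjusted p = 0.0628). Per3 was called in 12 of 16, and lost its call without OVA replicate 3 or 4 or PBS replicate 3 or 4 (0.0544 to 0.0762). Per2 was called in 6 of 16, and lost its call without OVA replicate 1, 2 or 4, without PBS replicate 1, 3 or 4, and without BALB-RAG OVA replicate 1, 3 or 4 or BALB-RAG PBS replicate 3, which share the estimate of the spread (limma adjusted p of up to 0.13). Dbp and Nr1d2 passed without OVA replicate 1 (0.0228 and 0.0214) or 2 (0.026 and 0.039), and Nr1d1 without OVA replicate 1 (0.0385). With the mean of all probe sets of a gene, or with a fit of the 8 BALB/c arrays alone, Per2 (0.246 and 0.0508) and Per3 (0.0729 and 0.088) were not called. Per2 also failed with no filter (0.0529) and with each array centred on its median (0.056). The means of several marker lists moved with OVA in BALB/c. Higher were macrophages at 10.49 to 11.57 against 8.56 to 9.5 and airway epithelium at 10.07 to 10.5 against 7.8 to 8.57. Scgb3a2 of the airway list went the other way, at 11.87 to 12.41 against 12.91 to 13.1. T cells read 4.88 to 6.53 against 4.34 to 4.69 and B cells 6.44 to 7.45 against 5.58 to 5.9. Plasma cells read 8.62 to 9.62 against 6.86 to 7.77 and fibroblasts 8.7 to 9.05 against 8.22 to 8.58. Lower lists were endothelium (7 of 8 markers) at 9.3 to 9.93 against 10.01 to 10.24 and cardiac muscle at 6.8 to 7.79 against 8.17 to 8.75. Adipose tissue was also lower, at 2.95 to 3.98 against 4.14 to 5.45. Skeletal muscle read 3.31 to 3.56 against 3.6 to 8.97, but only PBS replicate 1, at 8.97, lay above log2 4. Their part in these differences was not tested, nor was that of the hour of collection.

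In BALB-RAG lungs 0 of the 8 genes were called between OVA and PBS by limma, where 0.165% of all tested genes, or 12 genes, were. Per2 alone of the 8 had an unadjusted p under 0.05, with a difference of 0.70 ± 0.22 (limma adjusted p = 0.309). The other 7 differed by −0.51 to 0.50. The median was 0.22 over the 8 genes and 0.02 over all tested genes. Dbp averaged 7.58 after OVA and 7.69 after PBS, and no member was called without BALB-RAG OVA replicate 2 either. Cd3d read 4.88 to 5.93 on the PBS arrays, 7.03 on OVA replicate 2 and 2.32 to 2.5 on OVA replicates 1, 3 and 4. Exposure and lymphocyte transcripts thus varied together here, the more so without OVA replicate 2, and their separate parts were not tested.

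The difference of these responses, BALB-RAG minus BALB/c, passed for 2 of the 8 genes, both positive, with 8.49% of all tested genes called and 3.86% positive. It includes the BALB-RAG response, in which exposure and lymphocyte transcripts varied together, and the part of the latter was not tested. Per2 responded to OVA by 0.70 in BALB-RAG and by −0.69 in BALB/c, a difference of 1.39 ± 0.31 (limma adjusted p = 0.0112) that was called in all 16 fits without 1 array. Ciart responded by 0.28 and −0.99, a difference of 1.27 ± 0.37 (limma adjusted p = 0.0461). Ciart was called in 3 of the 16 fits without 1 array, and without BALB-RAG OVA replicate 2 its limma adjusted p was 0.0597, and with no filter on low signal 0.0595. Dbp, Nr1d1, Nr1d2 and Per3 differed by −1.76, −1.84, −1.15 and −0.76 (limma adjusted p of 0.213 or more). With replicates 3 and 4 alone and levels under log2 4 set to 4 these 4 passed, at −3.08, −2.83, −2.43 and −1.63 (limma adjusted p of 0.0363 or less), and with replicates 1 and 2 alone, treated likewise, they differed by 0.04, −0.34, 0.14 and 0.18. Per2 differed by 1.08 with replicates 3 and 4 (limma adjusted p = 0.241) and by 1.70 with replicates 1 and 2 (0.0285).

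Replicates 3 and 4 were also set against replicates 1 and 2 across all groups, because the replicate number could mark a set of samples. The order of samples in the series gives the same sets, with replicates 1 and 2 of all groups before replicates 3 and 4. Of the 8 genes 2 were called, and both were higher, whereas 38.1% of all tested genes were called and 15.5% were higher. Nr1d2 differed by 0.97 ± 0.28 (limma adjusted p = 0.0148) and Tef by 0.49 ± 0.18 (limma adjusted p = 0.045). Within groups, Nr1d2 on replicates 3 and 4 was higher by 2.63 in BALB/c after OVA and by 0.36 in BALB/c after PBS, and by 0.3 and 0.59 in BALB-RAG after OVA and after PBS. Dbp moved by 2.58 in BALB/c after OVA and by −0.86 in BALB/c after PBS, and averaged 0.18 ± 0.41 over the groups (limma adjusted p = 0.755). Without BALB/c OVA replicates 3 and 4 the difference of Nr1d2 was 0.42 (limma adjusted p = 0.0535). Tef lost its call in 10 of the 16 fits without 1 array.

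The genes differed widely in how much they varied inside a group. Within BALB/c after OVA the SD of Nr1d1 was 2.00 on the log2 scale, with 2 of its 4 levels under log2 4, larger than that of 99.9% of tested genes, and the SDs of Nr1d2 (1.52) and Dbp (1.49) were larger than 99.8% of them. The median SD of all tested genes in that group was 0.26. Tef (0.85) and Per3 (0.59) varied more than 97.8% and 90.8% of genes, Hlf (0.47) more than 82.7%, and Per2 (0.28) and Ciart (0.18) more than 53.5% and 30.8%. Deviations from the group means moved together for most of the genes over the 16 arrays: r was 0.94 between Dbp and Nr1d1 and between Tef and Nr1d2, 0.85 between Nr1d1 and Nr1d2, 0.79 between Dbp and Nr1d2, and 0.72 between Dbp and Per3. Hlf had r of −0.43 to 0.13 with the others, Ciart of −0.12 to 0.25 and Per2 of −0.03 to 0.52. These correlations are descriptions, since all genes share the same 16 arrays and the large deviations come from 4 arrays of 1 group.

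**Figure D4:**
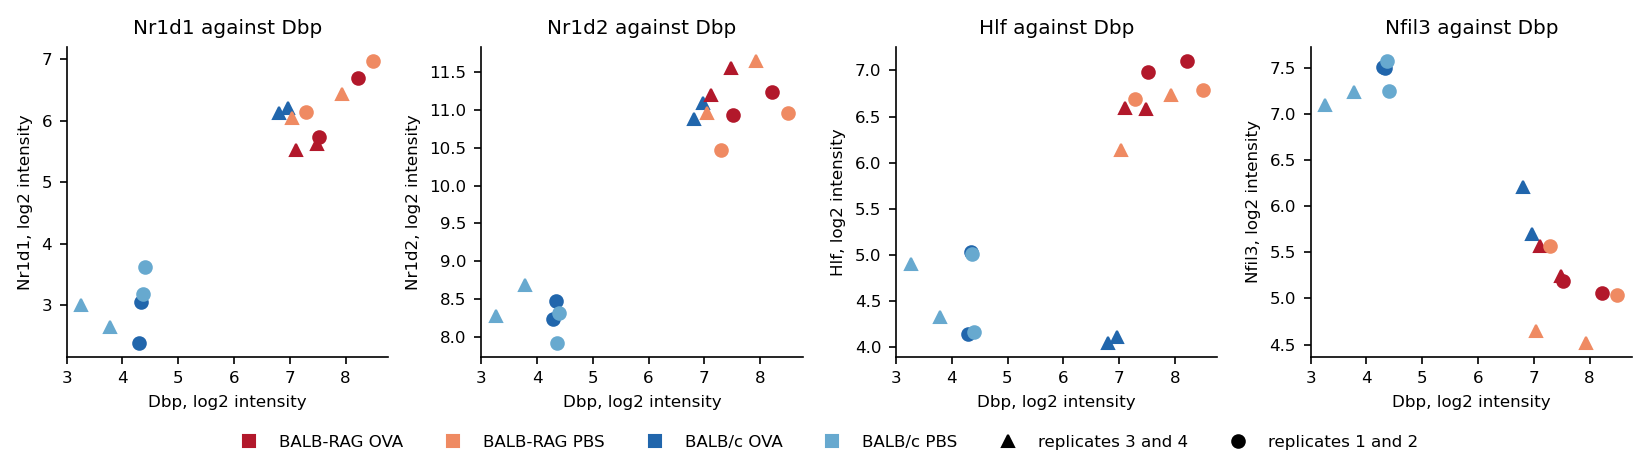
Log2 intensity of Nr1d1, Nr1d2, Hlf and Nfil3 (y axes) against that of Dbp (x axis) on 16 arrays, coloured by group, with replicates 3 and 4 as triangles and replicates 1 and 2 as circles. The BALB/c OVA triangles lie with the BALB-RAG arrays for Nr1d1 and Nr1d2, and with the other BALB/c arrays for Hlf, at 4.11 and 4.05.

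Genes whose deviations from the group means were most like the mean of the 8 were Plcb4 (r = 0.90), a phospholipase, Zdhhc17 (0.89), a palmitoyl transferase, Fgfbp1 (0.88), which binds fibroblast growth factors, Cyp2b10 (0.88), a cytochrome P450, and Cry2 (0.85), a clock repressor. The most opposed were Npas2 (−0.89), which can stand in for CLOCK, Myo1f (−0.87), an unconventional myosin, Nfil3 (−0.85), Hsd11b2 (−0.85), which inactivates corticosterone, and Fxyd4 (−0.84), a regulator of the sodium pump. The likeness was measured over 16 arrays and has no test. Deviations were averaged without scaling, so genes that vary much weigh most in the mean of the 8. The SD inside groups was 1.08 for Nr1d1, 0.89 for Dbp and 0.83 for Nr1d2, against 0.32 to 0.47 for the others. Each of these genes had its largest SD in BALB/c after OVA, so the likeness rests largely on the arrays of that group. For Fxyd4 that SD was 1.72, against 0.04 to 0.16 in the other groups, and for Cry2 it was 0.61, against 0.16 to 0.4. Cry2 read 7.56 and 7.24 on BALB/c OVA replicates 3 and 4 and 6.30 and 6.43 on replicates 1 and 2. Npas2 read 3.97 and 4.10 on replicates 3 and 4 and 5.98 and 6.23 on replicates 1 and 2 of that group, the reverse of Dbp. Nfil3 read 5.7 and 6.21 against 7.51 and 7.49 on the same arrays, and 7.09 to 7.57 in BALB/c after PBS.

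The other limb of the loop, a list of 7 genes of the CLOCK and ARNTL side and of the phase opposite to Dbp, had 6 tested members. After PBS 4 of the 6 were lower in BALB-RAG, with a median of −1.59, where 3.90% of all tested genes were called. Nfil3 differed by −2.34 ± 0.35 (limma adjusted p = 0.00152), Arntl by −2.09 ± 0.35 (0.0038), Npas2 by −2.22 ± 0.47 (0.0139) and Cry1, a repressor that peaks late in the cycle, by −1.08 ± 0.19 (0.00522). Arntl read 4.56, 5.40, 5.72 and 5.40 in BALB-RAG after PBS, against 6.89, 7.16, 7.83 and 7.55 in BALB/c after PBS. After OVA, 2 were higher and 2 lower in BALB-RAG, with a median of 0.0 and 23.8% of all tested genes called: Rora, an activator of Arntl, differed by 0.94 ± 0.13 (limma adjusted p = 0.000103) and Cry1 by 0.59 ± 0.19 (0.0354), while Nfil3 differed by −1.46 ± 0.35 (0.00559) and Arntl by −1.04 ± 0.35 (0.0432). With OVA in BALB/c 4 of the 6 fell, with a median of −0.9 and 15.5% of all tested genes called. The 4 were Cry1 (−1.13 ± 0.19, limma adjusted p = 0.00084), Rora (−0.54 ± 0.13, 0.0109), Arntl (−1.33 ± 0.35, 0.0174) and Npas2 (−1.64 ± 0.47, 0.0251). With OVA in BALB-RAG 0 of the 6 were called by limma, 2 had an unadjusted p under 0.05, and the median was 0.4.

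**Figure D5:**
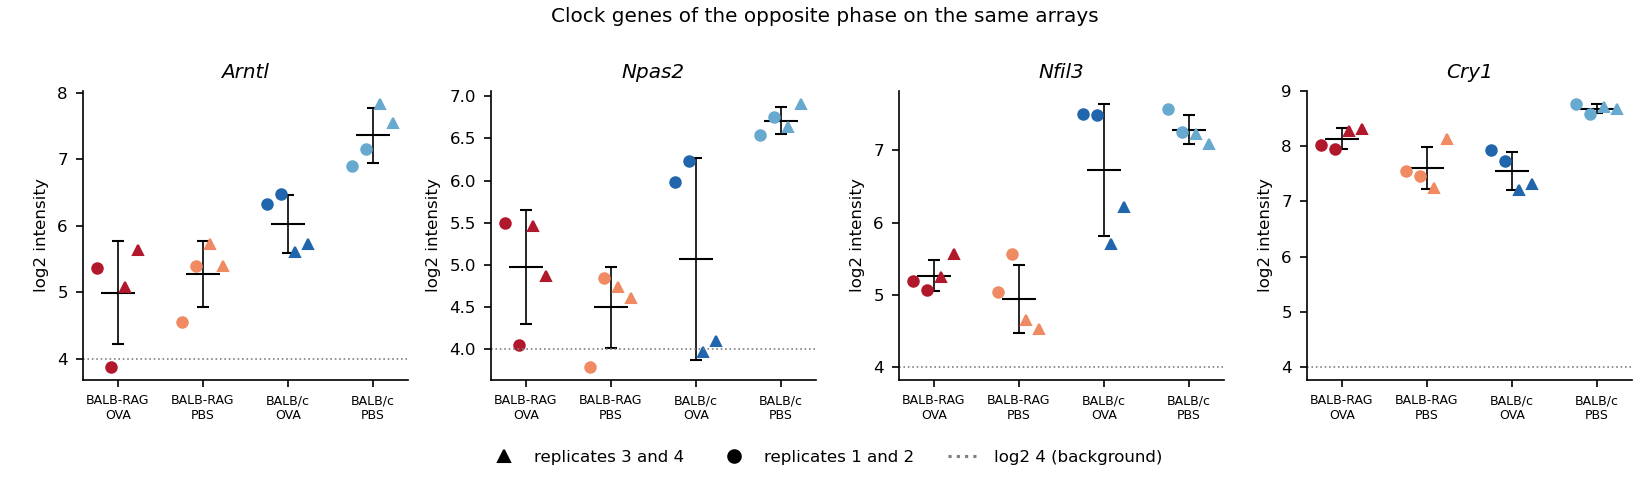
Log2 intensity (y axis) of Arntl, Npas2, Nfil3 and Cry1 on 16 arrays by group (x axis), with replicates 3 and 4 as triangles and replicates 1 and 2 as circles. Black bars are the group mean and SD of 4 arrays and the dotted line is log2 4. In BALB/c after OVA the triangles lie below the circles in all 4 panels (Npas2 at 3.97 and 4.10 against 5.98 and 6.23).

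Modulators of the clock, were a list of 17 with 14 tested. After PBS 0 of the 14 were called between the lines by limma, 1 had an unadjusted p under 0.05, and the median was −0.05, with 3.90% of all tested genes called. After OVA 3 were higher and 2 lower in BALB-RAG, with 23.8% of all tested genes called: Bhlhe40, which competes for E-boxes, differed by −1.49 ± 0.21 (limma adjusted p = 0.000103), Cry2 by 1.18 ± 0.27 (0.00418), Timeless by −0.61 ± 0.16 (0.0102) and Ppargc1a, a coactivator, by 0.93 ± 0.25 (0.0138). With OVA in BALB/c Bhlhe40 rose by 1.5 ± 0.21 (limma adjusted p = 0.000182) and Csnk1e, a kinase that acts on PER proteins, fell by 0.36 (0.0306).

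Output genes of the clock in many tissues, of which 13 of 22 were tested, were mixed. After PBS 4 were lower in BALB-RAG, with a median of −0.39 and 3.90% of all tested genes called: Hsph1 and Hspa8, which are heat shock proteins, differed by −2.23 ± 0.26 (limma adjusted p = 0.000251) and −0.60 ± 0.13 (0.0165), Cdkn1a, a cell cycle inhibitor, by −2.08 ± 0.27 (0.000523), and Tsc22d3, which glucocorticoids induce, by −0.84 ± 0.22 (0.0487). After OVA 5 were higher and 4 lower in BALB-RAG, with a median of 0.14, where 23.8% of all tested genes were called and 11.6% were higher. Usp2, a deubiquitinase, was higher by 2.47 ± 0.32 (limma adjusted p = 5.05e-05) and Klf9 by 1.45 ± 0.26 (0.000653). With OVA in BALB/c, where 15.5% of all tested genes were called, 1 rose and 3 fell, among them Usp2 by −1.33 ± 0.32 (limma adjusted p = 0.01), while Per3 rose.

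Glucocorticoids and other acute signals induce several clock genes, Per1 and Per2 among them, so their targets are given beside the clock genes. Of 19 glucocorticoid-induced genes other than Per1, 14 were tested. After PBS 6 were lower in BALB-RAG, with 3.90% of all tested genes called in either direction. After OVA 8 were higher, as were 11.6% of all tested genes. The difference of the OVA responses passed for 8, all of them positive, as it did for 3.86% of all tested genes. With OVA in BALB-RAG, where 0.165% of all tested genes were called, 4 rose, among them Fam107a by 2.12 ± 0.27 (limma adjusted p = 0.00321) and Angptl4, a lipase inhibitor, by 2.28 ± 0.34 (0.0103). With OVA in BALB/c 6 fell, as did 6.78% of all tested genes, and 1, Lcn2, rose. Pdk4, a mitochondrial kinase that fasting raises, fell by 2.12 (limma adjusted p = 0.000374) in BALB/c, as did Cebpd, by 1.40 (0.00142). Immediate early genes, of which 10 of 17 were tested, were lower in BALB-RAG after PBS in 7 cases, with a median of −1.35 and 3.90% of all tested genes called. Fos differed by −2.45 ± 0.46 (limma adjusted p = 0.00719), Klf4 by −1.33 ± 0.20 (0.00193), Ier2 by −1.22 ± 0.21 (0.00435) and Btg2 by −1.67 ± 0.30 (0.0062). After OVA 1 was higher and 2 lower, with 23.8% of all tested genes called. Their part in the clock differences was not tested. In the comparison of the OVA responses between the replicate pairs of BALB/c, 0 genes of these 5 lists were called by limma, and the lists held 0 to 6 genes each with an unadjusted p under 0.05.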

How the data were processed

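The deposited table gives, per the submitters' processing notes, intensity values made with GCRMA, a method that subtracts background, scales arrays to each other and combines the probes of a set. Which release of GCRMA was run is not given there. TRIZOL was used to isolate RNA, and 6 µg of it went into each labelling, per the labels' protocols. The deposited values run from 2.32 to 35181, are on a linear scale, and have 0 identical columns. The median of an array was 18.2 to 20.5, and log2 4 was passed by 52.1 to 53.5% of its probe sets. Precision is limited by the number of arrays.

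In the deposited table the probe set labels do not belong to the values beside them. Of 45101 labels 14300, in 3 runs, were realigned by fixed shifts, and the others were dropped. Labels of the first run took the values 64 rows above and those of the third the values 16168 rows below. The second run was given as shifted to the values 47 rows above, but took those 47 rows below, because pairs of probe sets of the same gene in other runs (clock genes left out) then had a median correlation of 0.589, against −0.028 with 47 rows above and 0.001 as deposited. This direction was chosen after the data were seen. All gene names depend on this step, and Tef, Per3 and Nr1d1 lie in the second run. Of the realigned labels 13146 carried 1 gene symbol, 366 several and 788 none. They named 9866 genes.

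Log2 was taken, probe sets were kept if 4 or more arrays exceeded log2 4, and the probe set with the highest mean was kept per gene, which left 7276 genes. Limma 3.58.1 in R 4.3.3 was fitted with 4 group means over 16 arrays (12 residual degrees of freedom), with Benjamini-Hochberg adjustment over all genes at 0.05, and was tested on simulated data. Replicates 3 and 4 against 1 and 2 were a further term (11 residual degrees of freedom), and the comparison of responses between these pairs used 8 means (8 residual degrees of freedom). Where no array of the lower group passed log2 4, folds are "at least" values, with levels under it set to 4. Same-numbered samples deviated together from their group means (r = 0.304 to 0.456 between OVA and PBS in BALB/c, 0.32 to 0.349 between lines after PBS, 0.182 to 0.332 after OVA). The numbers could thus mark pairs there, or sets made of replicates 1 and 2 and of replicates 3 and 4, by the data and not by the labels. Samples of different numbers were not correlated, so pairs and sets cannot be told apart. In BALB-RAG the correlations ranged from 0.025 to 0.478 between OVA and PBS, so pairs were less clear. The main fits were unpaired in all comparisons, and the replicate number as a block was an alternative. For OVA in BALB/c the limma adjusted p of Nr1d2 was 0.0933 in the main fit and 0.0355 with the block. All 9 members are named, with up to 4 genes of smallest p per list and the 5 genes most and least like the members. The members and the 5 lists were chosen with earlier results of these data known.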

Additional observations from a re-analysis of the deposited data

Results flagged for a closer look

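In 5 of the 32 sets of 4 arrays (8 genes in 4 groups) 1 array lay far from the other 3 by Dixon's 95% criterion, a gap that chance gives in about 1 in 20 sets. For Tef these were BALB-RAG OVA replicate 1 at log2 9.31, below the others, and BALB/c PBS replicate 4 at 8.02, above others that differed by 0.01 or less. For Hlf they were BALB-RAG PBS replicate 3 at 6.14 and BALB/c OVA replicate 2 at 5.03. For Ciart it was BALB-RAG OVA replicate 2 at 6.27, the array of that group with T cell transcripts.

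The response to OVA differed between the lines for Per2, by 1.39 ± 0.31 on the log2 scale (limma adjusted p = 0.0112), and for Ciart, by 1.27 ± 0.37 (limma adjusted p = 0.0461), both as BALB-RAG minus BALB/c. Within BALB/c the response to OVA differed between replicates 3 and 4 and replicates 1 and 2 for Nr1d1, by 4.01 ± 0.50 (limma adjusted p = 0.0106), and for Dbp, by 3.44 ± 0.55 (limma adjusted p = 0.0489). These 2 differences rest on levels under log2 4 in BALB/c (6 of 8 for Nr1d1 and 2 of 8 for Dbp). With those levels set to 4 they were 2.16 ± 0.42 and 2.96 ± 0.53, and neither passed (limma adjusted p = 0.0798 and 0.055). With levels as measured, Dbp passed this test in 0 of the 8 fits that left out 1 BALB/c array and Nr1d1 in 5.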

How the results depend on the processing

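Across the alternatives, 1229 of the single-gene values kept their direction and their side of the threshold, 119 no longer passed, 35 passed anew, 12 values called in at least 1 of the compared fits turned direction, and 57 values that were called under neither setting changed sign. With 1 array left out, the number of the 8 genes called ranged from 0 to 5 for OVA against PBS in BALB/c, 0 to 0 in BALB-RAG, 1 to 2 for the difference of the responses, 5 to 6 and 3 to 7 for the lines after PBS and after OVA, 1 to 3 for replicates 3 and 4 against 1 and 2, and 0 to 1 for the difference between replicate pairs in BALB/c. The share of all tested genes called in each alternative fit is not given here. A changed count therefore cannot be read as particular to the 8 genes. For OVA against PBS in BALB/c (3 genes called), 5 were called with replicates 3 and 4 alone and 0 with replicates 1 and 2 alone. There was 1 call each with the mean of all probe sets, with only its 8 arrays, and without BALB/c OVA replicates 3 and 4. With the replicate block the counts were 4 for OVA in BALB/c, 0 in BALB-RAG, 2 for the difference, and 6 and 5 for the lines after PBS and OVA, and the block changed the call of Nr1d2 in BALB/c and of no other gene. For the difference of the responses (2), 4 were called with replicates 3 and 4 alone and 1 each with replicates 1 and 2 alone, with no filter and with labels as deposited. For the lines after PBS (6), 3 were called with the second run taken 47 rows above and 1 with labels as deposited. For the lines after OVA (5), 3 each were called with replicates 3 and 4 alone, with only its 8 arrays and with labels as deposited. For replicates 3 and 4 against 1 and 2 (2), 1 each was called with no filter, with the BALB/c arrays alone and with 47 rows above, and 0 with the BALB-RAG arrays alone and without BALB/c OVA replicates 3 and 4. With values under log2 4 set to log2 4, the fit of the difference between replicate pairs (2) called 1, which was Nr1d2, and in the fits of 1 replicate pair alone 1 count moved, that of the lines after PBS with replicates 3 and 4, where 4 genes were called in place of 5. Centring each array on its median changed 1 call, that of Per2 for OVA in BALB/c (−0.7, limma adjusted p = 0.056). Directions turned when the labels were left as deposited, where other probes carry the names: for OVA in BALB/c, Dbp (−0.54), Per2 (0.01) and Per3 (−1.76), for the difference Per3 (1.37), for the lines after PBS Hlf (−0.5) and Nr1d1 (−0.73), after OVA Nr1d1 (−1.37), and for the replicate pairs Per2 (−0.32) and Nr1d2 (−1.36). With 47 rows above, Per3 for OVA in BALB/c was −0.11 and Nr1d1 for the lines after PBS −0.4. Without BALB/c OVA replicates 3 and 4 Tef differed between OVA and PBS in BALB/c by −0.63 (limma adjusted p = 0.0455). The cause of these changes was not tested, except that fewer arrays and other rows enter by construction. Leaving out these 2 arrays, reading the second run 47 rows above, and setting low values to log2 4 in the fits of replicate pairs were chosen after seeing the data. Genes under background, such as Nr1d1 on 6 BALB/c arrays, have folds that are bounds.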
